A study of Mus musculus with 16 samples.

Results

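The collagen alpha chains are the 44 genes of the table whose symbol has the form of Col, a number, a and a number, out of 23946 genes in all. Membership follows from the form of the symbol and uses no measured value, and 23 of them reached 1 FPKM in at least 4 of 16 libraries, the level set for testing. The tissue was the free wall of the right ventricle (RV) or left ventricle (LV) of adult male FVB mice aged 10 to 13 weeks. There were 4 groups of 4 libraries: RV of mice with pulmonary artery banding (labelled PS, libraries PS_9552, PS_9553, PS_9561 and PS_9564), RV of sham-operated mice (libraries 1 to 4), LV of banded mice and LV of sham mice, with the same numbers. The labels name no genetic alteration in any group, the time after surgery is not given in the sources used here, and nothing in the labels says which libraries came from separate mice, so p-values reflect only how far these samples spread, which could be technical. PolyA RNA was sequenced, and levels are FPKM, fragment numbers scaled to transcript length and library size, so that chains of different length can be set side by side.

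Collagens are secreted proteins whose alpha chains wind around each other into a rope-like helix. Fibrillar collagens, chiefly types I and III in the heart wall, form the load-bearing fibres between muscle cells and are made mostly by fibroblasts. Type IV collagen forms the sheet-like network of the basement membranes that wrap cardiomyocytes and blood vessels, and the remaining classes decorate fibrils, form fine filaments or anchor cells to the matrix. Pulmonary artery banding narrows the outflow of the right ventricle and raises the pressure against which it pumps.

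Some libraries stood apart in depth or scale. Fragments assigned to genes were estimated as 2.32e+06 to 5.50e+06 per library in banded RV, 338844 to 1.36e+06 in sham RV, 3.43e+06 to 9.02e+06 in banded LV and 1.74e+06 to 4.22e+06 in sham LV, so the sham RV were the shallowest. The ribosomal RNA precursor gene Rn45s was listed at 0 in 5 banded libraries (RV PS_9561 and PS_9564, LV PS_9552, PS_9553 and PS_9561), and those had scale factors of 1.24 to 1.30, against 0.843 to 1.01 in the other 11. A gene was therefore said to rise or fall only where limma's adjusted p was below 0.05 in the same direction on the values as deposited and on values divided by the scale factor (rescaled). All differences below are on the log2(FPKM + 1) scale, which understates the change of low genes, and are as deposited with their SE unless said otherwise. The cardiomyocyte genes Myh6 and Actc1 averaged 1741 and 6249 FPKM in banded RV, 1967 and 5316 in sham RV, 3169 and 8916 in banded LV and 1973 and 5519.7 in sham LV. In bulk tissue, fewer cells of a type and less RNA per cell cannot be told apart.

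Of the 23 chains that passed the level, 8 were of the 11 fibrillar chains, 4 of 6 type IV, 4 of 6 type VI, 4 of 9 fibril-associated (FACIT) chains, both multiplexins and 1 of 3 short-chain network collagens. None of the 4 transmembrane chains and none of the 3 chains for anchoring fibrils and others passed. Col4a1 of type IV had the highest mean FPKM in every group: it averaged 125 ± 8.83 FPKM in banded RV, 55.3 ± 12 in sham RV, 89.2 ± 22 in banded LV and 75.7 ± 7.27 in sham LV (SD, n = 4 in each). Next came Col4a2, Col1a1, Col3a1 and Col1a2, at 60.4 ± 5.41, 48.2 ± 4.09, 49 ± 6.12 and 41 ± 3.88 FPKM in sham LV, where the ranges of Col1a1, Col3a1 and Col1a2 overlapped. Col6a1, Col6a2 and Col15a1 followed, and every other chain averaged under 20 FPKM in every group. The plot of the 17 chains that averaged 5 FPKM or more in some group shows their level in each library.

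**Figure D1:**
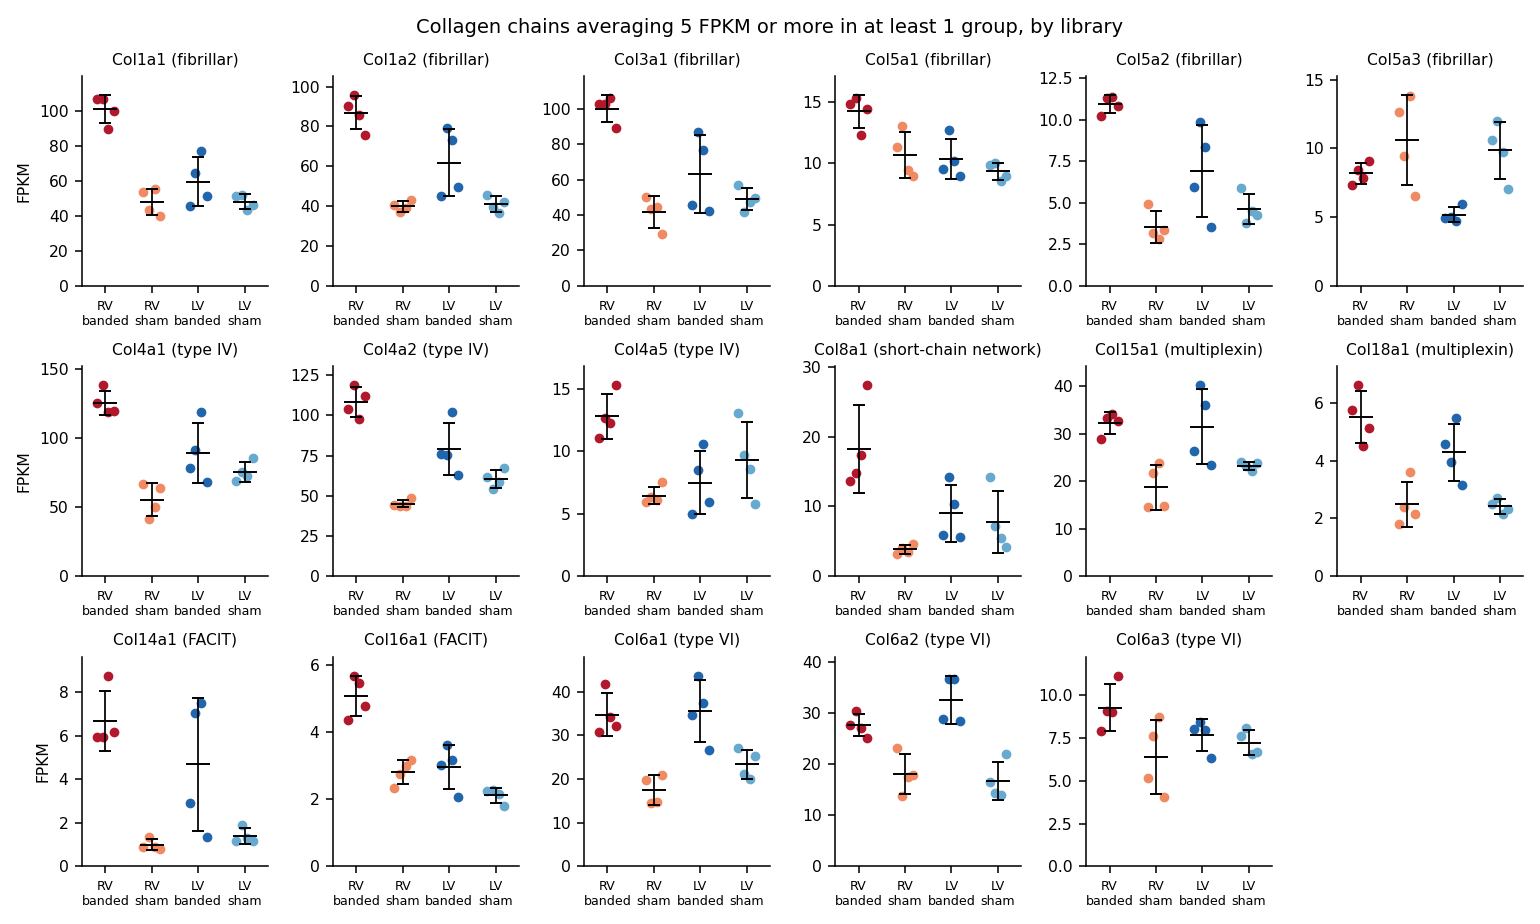
FPKM (y axis, from 0) of the 17 collagen chains averaging at least 5 FPKM in some group, with a point for each library, a dash for the group mean and a bar for the SD (n = 4). Each group of RV points from banded mice sits wholly above the sham RV points for Col1a1, Col1a2, Col3a1, Col5a2, Col4a1, Col4a2, Col4a5, Col8a1, Col15a1, Col18a1, Col14a1, Col16a1, Col6a1 and Col6a2, while the LV points mostly overlap.

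Promoter sequence is shown for chains that moved together, the neighbouring genes Col4a1 and Col4a2, the fibrillar chains Col3a1 and Col1a2, and Col8a1, which rose as well. The sequences are from RefSeq on build GRCm38.p6, not the mm9 build of the deposited values, and are given 5′ to 3′ on the strand of the gene (for the shared stretch, on the strand of Col4a2). Capitals mark matches on either strand to the CCAAT box, the TATA box letters TATAAA, the GC box letters GGGCGG or the Smad-binding letters CAGAC, overlapping matches included. The Col4a1 and Col4a2 starts used for these windows lie 21 bases apart on opposite strands of chromosome 8, and the stretch shown runs from position −44 to −15 relative to the Col4a2 start, inside the annotated Col4a1 transcript.
Col4a1 and Col4a2, chr8:11312761-11312790: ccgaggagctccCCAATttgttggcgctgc
Col3a1, chr1:45311418-45311537: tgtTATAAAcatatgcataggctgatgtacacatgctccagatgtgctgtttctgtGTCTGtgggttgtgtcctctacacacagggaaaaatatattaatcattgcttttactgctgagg
Col1a2, chr6:4505373-4505492: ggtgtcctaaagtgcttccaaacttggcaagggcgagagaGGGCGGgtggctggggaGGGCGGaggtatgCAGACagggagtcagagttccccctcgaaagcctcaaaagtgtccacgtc
Col8a1, chr16:57754738-57754857: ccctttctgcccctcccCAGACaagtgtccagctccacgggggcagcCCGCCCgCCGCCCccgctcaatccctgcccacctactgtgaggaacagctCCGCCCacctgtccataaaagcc
The Col3a1 and Col8a1 stretches end at the base before the start, and the Col1a2 stretch runs from position −245 to −126 relative to it. Stretches of Col15a1 and Col6a6 are not shown. That of Col15a1, which rose, held none of these letters from −120 to −1. That of Col6a6, which fell in banded RV, held CAGAC and GGGCGG from −195 to −76. Windows of 250 bases before to 50 after a start were on hand for 35 of the 44 chains and for 10 of the 14 that rose in banded RV, 11 windows in all for those 10. CCAAT was in 6 of these 11 windows and in 37.4% of all 32851 windows, GGGCGG in 7 of 11 and 35.7%, CAGAC in 6 of 11 and 49.6%, and TATAAA in 1 of 11 and 13.6%. Over the 21 windows of all tested chains, whether they rose or not, CCAAT was in 7, GGGCGG in 14, CAGAC in 13 and TATAAA in 2. A match describes the letters only and is not evidence of binding.

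In the right ventricle, collagen chains of 6 classes rose after banding. Of 23 tested chains, 14 rose in banded RV and 1 fell, where over all genes tested 10.0% rose and 4.93% fell. As deposited only, 15 chains passed upward (12.5% of genes), and rescaled only, 14 passed upward (10.1%) and 3 downward (9.49%). The chains that rose were Col1a1, Col1a2, Col3a1 and Col5a2 of the fibrillar class, Col4a1, Col4a2 and Col4a5 of type IV, Col6a1 of type VI, Col12a1, Col14a1 and Col16a1 of the FACIT class, the multiplexins Col15a1 and Col18a1, and Col8a1, and the chain that fell was Col6a6. Col12a1 passed the level for testing only through the banded RV and Col20a1 only through the sham RV, and without this pair 13 of 21 chains rose. The median difference over the 23 chains was 0.89 as deposited and 0.69 rescaled, beside 0.26 and 0.09 over all tested genes. The 4 banded RV libraries all lay above the 4 sham RV libraries for 15 chains and all below for 3, where 12.6% and 5.07% of all tested genes did.

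The main fibrillar chains, those of types I and III, were each more than doubled in banded RV on the FPKM scale as deposited. Col1a1, the main chain of type I collagen, stood at 107, 107, 89.7 and 100.1 FPKM in banded RV, against 53.4, 43.3, 55.3 and 39.7 in sham RV. Col1a2, which pairs with it in the same molecule, stood at 90.2, 95.7, 85.9 and 75.9 FPKM in banded RV, against 40.6, 36.9, 38.8 and 43.2 in sham RV. Col3a1, the chain of type III collagen, stood at 103, 103, 106 and 89.1 FPKM in banded RV, against 50.4, 43.2, 44.7 and 29.1 in sham RV. All banded RV libraries were above all sham RV libraries for each of these chains, and they rose by 1.07 ± 0.16 (adjusted p = 0.000638), 1.10 ± 0.17 (0.000608) and 1.26 ± 0.22 (0.00142) on the log2 scale. The rescaled differences were 0.85, 0.89 and 1.05, which are 1.80, 1.85 and 2.07 times on FPKM + 1, so that rescaled only Col3a1 was doubled.

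Type V collagen co-assembles with type I and helps to set fibril diameter, and its 3 chains did not move alike. Col5a2 stood at 10.2, 11.3, 11.4 and 10.8 FPKM in banded RV, against 4.96, 3.16, 2.8 and 3.34 in sham RV. The groups were far apart, and Col5a2 rose by 1.41 ± 0.24 (adjusted p = 0.00147). Col5a1, its usual partner, stood at 14.9, 15.3, 12.3 and 14.5 FPKM in banded RV, against 11.3, 13.1, 9.45 and 8.98 in sham RV, with overlapping groups, and did not pass (difference 0.39 ± 0.16, adjusted p = 0.0996, 95% interval 0.05 to 0.73). Col5a3 stood at 7.37, 8.4, 7.85 and 9.09 FPKM in banded RV, against 12.6, 9.45, 13.8 and 6.56 in sham RV, again with overlap (difference -0.30 ± 0.21, adjusted p = 0.333). The minor fibrillar chains Col27a1 and Col11a2, both best known from cartilage, averaged 3.56 ± 0.291 and 1.01 ± 0.146 FPKM in banded RV, against 2.62 ± 0.519 and 2.12 ± 0.552 in sham RV (SD, n = 4). Col27a1 did not pass (adjusted p = 0.247), and Col11a2, lower in every banded RV library than in any sham RV library, passed only on rescaled values (adjusted p = 0.0734 as deposited and 0.0266 rescaled).

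Of the 4 basement membrane chains tested, 3 rose in banded RV. Col4a1 stood at 125, 138, 119 and 119 FPKM in banded RV, against 66.6, 41, 49.9 and 63.7 in sham RV. Col4a2, its partner in the common type IV molecule and its head-to-head neighbour shown above, stood at 104, 119, 97.6 and 112 FPKM in banded RV, against 44.3, 43.6, 43.7 and 48.4 in sham RV. Every banded RV library lay above every sham RV library for both, and they rose by 1.19 ± 0.18 (adjusted p = 0.000571) and 1.24 ± 0.14 (7.96e-05). Col4a5, a chain of another type IV network and the gene altered in X-linked Alport syndrome, stood at 11, 12.6, 12.2 and 15.3 FPKM in banded RV, against 5.91, 6.3, 6.09 and 7.5 in sham RV. It rose by 0.89 ± 0.24 (adjusted p = 0.0174) with no overlap. Col4a4 averaged 2.3 ± 0.389 FPKM in banded RV and 1.7 ± 0.436 in sham RV and did not pass (difference 0.30 ± 0.23, adjusted p = 0.371). The ratio of Col4a2 to Col4a1, which does not depend on library scale, was 0.863 ± 0.0542 in banded RV and 0.841 ± 0.171 in sham RV (SD, n = 4), with overlapping ranges of 0.819 to 0.94 and 0.666 to 1.06.

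Type VI collagen forms beaded filaments that link cells to the matrix around them. Of its 4 tested chains, 3 had a positive difference in RV, of which 1 passed on both scales, and 1 fell. Col6a1 stood at 30.8, 41.7, 34.2 and 32.2 FPKM in banded RV, against 19.9, 14.5, 14.8 and 21 in sham RV. It rose by 0.95 ± 0.18 (adjusted p = 0.00255), all banded RV above all sham RV. Col6a2, which joins Col6a1 in the same molecule, stood at 27.7, 30.4, 27.1 and 25.2 FPKM in banded RV, against 23.3, 13.8, 17.5 and 17.9 in sham RV. Its groups did not overlap, but it passed only as deposited (difference 0.60 ± 0.18, adjusted p = 0.0296, and 0.151 rescaled). Col6a3, the long chain of the molecule, stood at 7.89, 9.06, 9.05 and 11.2 FPKM in banded RV, against 5.15, 7.63, 8.75 and 4.05 in sham RV, and overlapped (difference 0.52 ± 0.20, adjusted p = 0.0875). Col6a6, a chain related to Col6a3, went the other way. It stood at 0.359, 0.741, 0.596 and 0.717 FPKM in banded RV, against 3.72, 3.56, 3.33 and 1.91 in sham RV. Every banded RV library was below every sham RV library, and Col6a6 fell by 1.35 ± 0.20 (adjusted p = 0.000488), resting on an estimated 7.13 to 33.4 fragments per library in banded RV and 10.4 to 43.6 in sham RV.

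Fibril-associated collagens sit on the surface of fibrils, and 3 of the 4 tested rose. Col14a1 stood at 5.92, 5.92, 8.75 and 6.17 FPKM in banded RV, against 0.872, 1.36, 0.912 and 0.798 in sham RV. It rose by 1.95 ± 0.33 (adjusted p = 0.00115), and the sham RV values rest on an estimated 2.88 to 7.45 fragments per library. Col16a1 stood at 4.38, 5.68, 5.46 and 4.79 FPKM in banded RV, against 2.33, 2.75, 2.98 and 3.16 in sham RV, and rose by 0.67 ± 0.18 (adjusted p = 0.0196) without overlap. Col12a1, a close relative of Col14a1, stood at 1.57, 1.03, 3.02 and 1.44 FPKM in banded RV, against 0.105, 0.182, 0.20 and 0.125 in sham RV. Col12a1 rose by 1.21 ± 0.23 (adjusted p = 0.00298), but its sham RV values rest on 0.698 to 1.62 estimated fragments per library, under the 3 fragments taken as the limit of detection, so that the fitted difference is no bound on its fold change. Col20a1 averaged 0.94 ± 0.196 FPKM in banded RV and 1.8 ± 0.53 in sham RV and passed only rescaled (difference -0.52 ± 0.21, adjusted p = 0.0926, and 0.0255 rescaled).

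The multiplexins, which lie in and near basement membranes, and the short-chain collagen Col8a1, known from vessel walls, rose as well. Col15a1 stood at 28.8, 33.4, 34.2 and 32.5 FPKM in banded RV, against 14.5, 21.6, 23.9 and 14.8 in sham RV. Col18a1, whose protein is the source of the fragment endostatin, stood at 5.76, 6.6, 4.51 and 5.14 FPKM in banded RV, against 1.79, 2.38, 3.6 and 2.16 in sham RV. The groups did not overlap for either, and they rose by 0.78 ± 0.19 (adjusted p = 0.0107) and 0.92 ± 0.21 (0.00725). Col8a1 stood at 13.6, 14.7, 17.3 and 27.4 FPKM in banded RV, against 3.24, 4.09, 3.49 and 4.63 in sham RV. All banded RV libraries were far above the sham RV, library PS_9564 most of all, and Col8a1 rose by 1.94 ± 0.32 (adjusted p = 0.00115).

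The 21 chains below the level for testing were low in all groups. Col11a1, a fibrillar chain, stood at 0.412, 0.317, 1.19 and 0.728 FPKM in banded RV and was listed at 0 in all 4 sham RV libraries. Col8a2, the partner of Col8a1, stood at 0.761, 0.418, 1.61 and 1.13 FPKM in banded RV and at 0.186, 0, 0 and 0 in sham RV. The depth of the sham RV limits what these zeros say, since 3 fragments there are worth 0.294 to 1.19 FPKM of Col11a1 and 0.532 to 2.14 FPKM of Col8a2, about the levels found in banded RV. Col6a5, Col23a1, Col4a3 and Col4a6 reached at most 1.43, 1.27, 1.14 and 1.06 FPKM in any library. Col22a1, Col10a1, Col13a1, Col9a3, Col7a1, Col25a1, Col9a2, Col26a1, Col28a1, Col6a4, Col17a1, Col2a1, Col9a1, Col19a1 and Col24a1 peaked between 0.0840 and 0.996 FPKM.

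**Figure D2:**
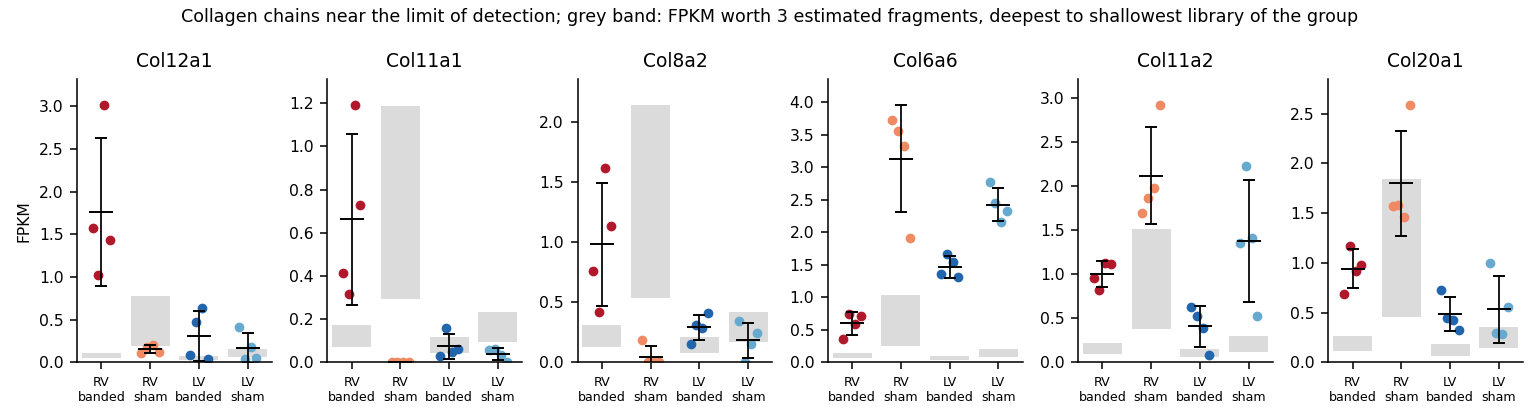
FPKM (y axes, from 0) of 6 low collagen chains with a point for each library, a dash for the group mean and a bar for the SD (n = 4), and a grey band for the level worth 3 estimated fragments in the deepest to the shallowest library of the group. The sham RV bands reach 0.783 FPKM for Col12a1 and 1.19 FPKM for Col11a1, above every sham RV point of both chains, while Col6a6 lies above its band in all sham RV libraries.

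The right ventricular rises kept their sign under every scaling tried, but not all kept the call. With quantile normalization Col12a1, Col16a1 and Col18a1 did not pass (differences 0.46, 0.36 and 0.60, adjusted p = 0.118, 0.131 and 0.0707). With only the RV libraries in the fit, Col15a1, Col16a1 and Col18a1 did not pass on both scales. Single libraries decided the call for 4 of them: Col15a1 did not pass without banded RV PS_9552, PS_9553 or PS_9561, sham RV 1 or 4, banded LV PS_9561 or PS_9564, or any 1 of the 4 sham LV libraries. Col4a5 did not pass without banded RV PS_9552, PS_9553 or PS_9564 or sham RV 1 or 3, Col16a1 without banded RV PS_9552, PS_9553 or PS_9561, sham RV 1 or banded LV PS_9561, and Col18a1 without banded RV PS_9552 or PS_9553 or sham RV 1. Among libraries with an Rn45s value, which leaves 2 banded RV against 4 sham RV, 10 chains rose, and Col4a5, Col12a1, Col15a1 and Col16a1 did not pass. Collagen transcripts are long, 4100 to 11511 nt with a median of 6119 nt for the tested chains, and the 3384 other genes of 4000 to 8000 nt had a median difference of 0.35 as deposited and 0.18 rescaled, below that of the chains. After removal of the trend with length and GC content 13 chains rose, all but Col4a5.

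In the left ventricle, which does not pump against the band, no chain rose and 2 fell. Over all genes, 2.44% rose and 0.289% fell. As deposited alone, Col1a2, Col6a1, Col6a2 and Col14a1 passed upward, 4 of 23 where 14.3% of genes did. An unadjusted limma p under 0.05 in either direction was found for 9 of 23 chains and for 3638 of all 12100 genes. The chains' median difference was 0.23 as deposited and −0.12 rescaled, beside 0.33 and 0.01 over all genes, so that its sign depended on the scaling. The banded LV libraries all lay above the sham LV libraries for 2 chains and all below for 2, where 22.2% and 0.942% of genes did.

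Col5a3 and Col11a2 were the chains that fell in banded LV. Col5a3 stood at 4.97, 5.01, 4.71 and 5.95 FPKM in banded LV, against 10.6, 12, 9.73 and 7.05 in sham LV. Its groups did not overlap, and it fell by 0.80 ± 0.21 (adjusted p = 0.0193). Col11a2 stood at 0.63, 0.53, 0.39 and 0.0878 FPKM in banded LV, against 1.35, 2.23, 1.41 and 0.533 in sham LV. Sham library 4 lay within the banded range, and Col11a2 fell by 0.72 ± 0.23 (adjusted p = 0.0474). Col5a3 did not pass without banded LV PS_9552, PS_9553 or PS_9561 or sham LV 1, 2 or 3, and Col11a2 did not pass when any 1 of the 8 banded libraries, or sham LV 1, 2 or 3, was left out.

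The fibrillar chains of types I and III were uneven among the banded LV. Col1a1 stood at 45.8, 64.3, 76.9 and 51.3 FPKM in banded LV, against 51.5, 51.7, 43.5 and 46 in sham LV. Col1a2 stood at 45.3, 79, 73 and 49.4 FPKM in banded LV, against 45.6, 39.6, 36.5 and 42.2 in sham LV. Col3a1 stood at 45.9, 86.8, 76.6 and 42.6 FPKM in banded LV, against 56.8, 42, 47.5 and 49.6 in sham LV. In each case libraries PS_9553 and PS_9561 were high and PS_9552 and PS_9564 near the sham level, and the differences were 0.28 ± 0.16, 0.54 ± 0.17 and 0.30 ± 0.22 as deposited and -0.12, 0.15 and -0.10 rescaled. Col5a1 stood at 9.54, 12.8, 10.2 and 9.01 FPKM in banded LV, against 9.86, 10.0, 8.6 and 8.93 in sham LV. Col5a2 stood at 5.96, 9.87, 8.32 and 3.52 FPKM in banded LV, against 5.88, 3.76, 4.5 and 4.27 in sham LV. Both overlapped, with differences of 0.13 ± 0.16 and 0.44 ± 0.24 (adjusted p = 0.637 and 0.238). Col27a1 averaged 1.5 ± 0.0877 FPKM in banded LV and 2.07 ± 0.769 in sham LV (SD, n = 4) and did not pass (adjusted p = 0.402).

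Type IV chains did not pass in the left ventricle. Col4a1 stood at 78.2, 91.6, 119 and 68.1 FPKM in banded LV, against 69, 75.4, 72.4 and 85.8 in sham LV. Col4a2 stood at 76.1, 75.2, 102 and 63.2 FPKM in banded LV, against 61.5, 54.5, 58.4 and 67.3 in sham LV. Col4a5 stood at 4.94, 8.49, 10.6 and 5.94 FPKM in banded LV, against 13.1, 9.72, 8.61 and 5.79 in sham LV. Banded library PS_9561 was the highest or, for Col4a5, second only to sham library 1, and all the groups overlapped. The differences were 0.21 ± 0.18, 0.37 ± 0.14 and -0.28 ± 0.24 (adjusted p = 0.458, 0.0953 and 0.448). Col4a4 averaged 1.5 ± 0.399 FPKM in banded LV and 2.32 ± 0.84 in sham LV (SD, n = 4), with overlap (difference -0.38 ± 0.23, adjusted p = 0.28).

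Among type VI chains, Col6a2 stood at 28.8, 36.7, 36.7 and 28.4 FPKM in banded LV, against 16.5, 14.4, 14 and 22 in sham LV. Col6a1 stood at 34.7, 43.7, 37.4 and 26.7 FPKM in banded LV, against 27.1, 21.1, 20.1 and 25.2 in sham LV. Col6a3 stood at 8.05, 8.43, 7.96 and 6.34 FPKM in banded LV, against 7.62, 8.08, 6.55 and 6.68 in sham LV. Only Col6a2 was free of overlap, and it passed as deposited but not rescaled (difference 0.94 ± 0.18, adjusted p = 0.00348, and 0.106 rescaled). The ratio of Col6a2 to Col6a1 was 0.93 ± 0.113 in banded LV and 0.715 ± 0.111 in sham LV, whereas it was 0.802 ± 0.0716 in banded RV and 1.04 ± 0.165 in sham RV (SD, n = 4), a description with no test. Col6a6 averaged 1.47 ± 0.166 FPKM in banded LV and 2.42 ± 0.259 in sham LV, lower in every banded library, and passed only rescaled, where 1.50% of genes passed downward (difference -0.47 ± 0.20, adjusted p = 0.116, and 0.0408 rescaled).

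Among the remaining classes, Col14a1 stood at 2.91, 7.03, 7.49 and 1.33 FPKM in banded LV, against 1.18, 1.92, 1.29 and 1.14 in sham LV. Again PS_9553 and PS_9561 were high and PS_9564 lay within the sham range, and the difference of 1.08 ± 0.33 passed only as deposited (adjusted p = 0.0348, and 0.143 rescaled). Col16a1 stood at 3.01, 3.63, 3.16 and 2.07 FPKM in banded LV, against 2.25, 2.26, 2.16 and 1.8 in sham LV. Col15a1 stood at 26.3, 40.1, 35.9 and 23.3 FPKM in banded LV, against 24, 23.1, 22 and 23.7 in sham LV. Both overlapped by the low library PS_9564 and did not pass (adjusted p = 0.231 and 0.176). Col18a1 stood at 4.58, 3.96, 5.47 and 3.14 FPKM in banded LV, against 2.48, 2.72, 2.14 and 2.31 in sham LV. Col8a1 stood at 5.91, 14.2, 10.3 and 5.68 FPKM in banded LV, against 14.2, 7.24, 5.43 and 4.24 in sham LV. Col18a1 did not overlap yet missed the threshold (difference 0.61 ± 0.21, adjusted p = 0.0542), while Col8a1 overlapped widely (difference 0.23 ± 0.32, adjusted p = 0.674). Col12a1 and Col20a1 averaged 0.307 and 0.486 FPKM in banded LV, against 0.169 and 0.534 in sham LV. Neither passed (adjusted p = 0.711 and 0.945).

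The difference between the ventricles was tested directly, as the RV difference between banded and sham minus the LV one. Col4a1, Col4a2 and Col4a5 of type IV and Col8a1 had a more positive banding effect in the right ventricle, 4 of 23 chains where 0.529% of all genes did. No chain had a more negative one (3.56% of all genes). The 3384 other genes of 4000 to 8000 nt had a median difference of effects of 0.11 as deposited and 0.25 rescaled. For the 7986 genes under 4000 nt it was −0.21 and −0.06, and the 23 chains, all of 4100 nt or more, had 0.56 and 0.68. An unadjusted limma p under 0.05 in either direction was found for 10 of 23 chains and for 2206 of all 12100 genes. The effect in RV exceeded that in LV by 0.98 ± 0.25 for Col4a1 (adjusted p = 0.0272), by 0.88 ± 0.20 for Col4a2 (0.015), by 1.17 ± 0.33 for Col4a5 (0.0467) and by 1.71 ± 0.46 for Col8a1 (0.0339). For the fibrillar chains the same difference was 0.79 ± 0.23 for Col1a1 (adjusted p = 0.054, and 0.0491 rescaled), 0.97 ± 0.31 for Col3a1 (0.0738, and 0.0439 rescaled) and 0.97 ± 0.34 for Col5a2 (0.119, and 0.0319 rescaled), so these passed rescaled and not as deposited. With Col12a1 they made 8 chains rescaled, where 2.02% of genes passed upward. For Col14a1 it was 0.87 ± 0.46, with a 95% interval of -0.10 to 1.84. None of the 4 passed among libraries with an Rn45s value, where banded LV keeps 1 library, though the differences there were 1.41, 1.22, 1.31 and 1.92. Leaving out a single library left between 1 and 5 chains, as few as 1 without banded LV PS_9552 or sham LV 2. Col4a2 passed throughout, Col4a1 did not without banded RV PS_9553, banded LV PS_9552 or sham LV 2 or 3, and Col8a1 did not without banded RV PS_9564, sham RV 1 or 3, banded LV PS_9552 or PS_9564, or sham LV 1 or 2. Col4a5 passed only without sham RV 4, banded LV PS_9561 or sham LV 4.

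**Figure D3:**
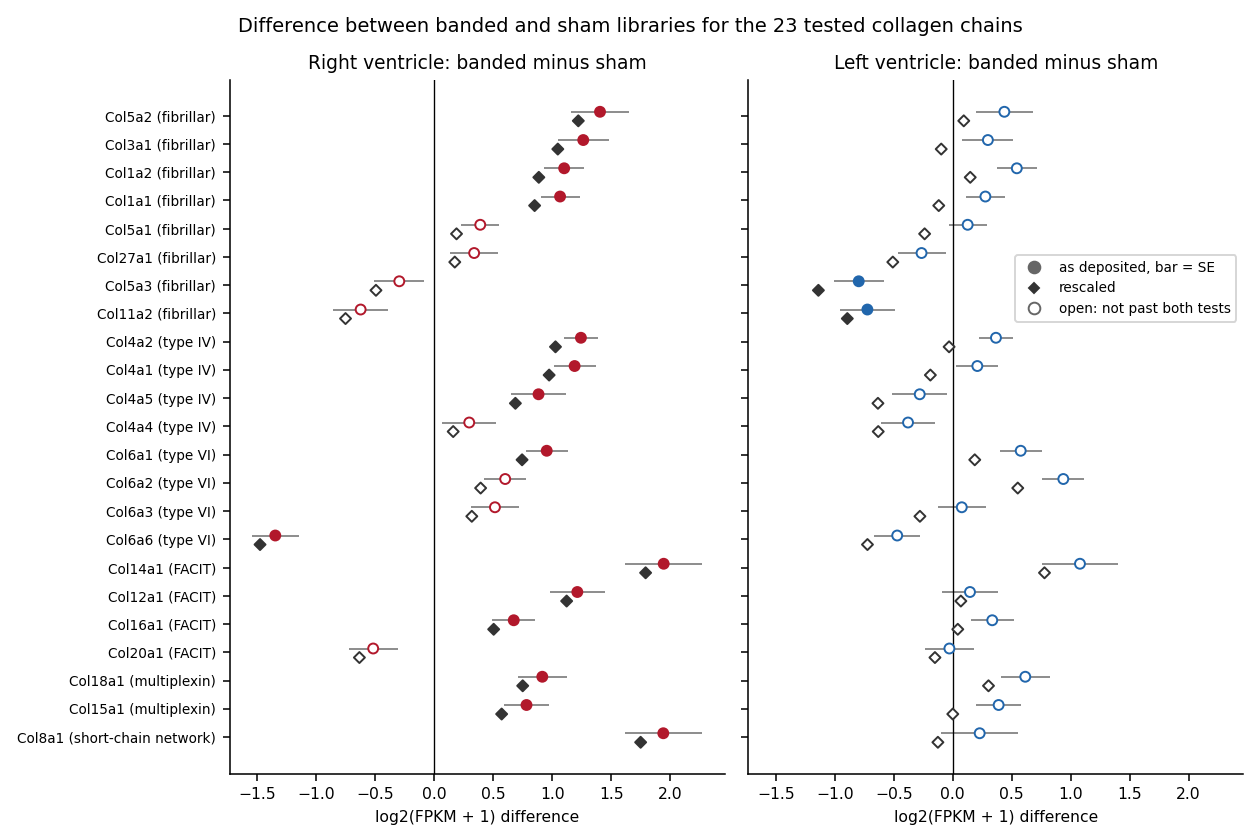
Difference between banded and sham libraries on the log2(FPKM + 1) scale (x axis) for the 23 tested chains grouped by class, in the right ventricle (left panel) and left ventricle (right panel), as deposited (circles, bars for the SE) and rescaled (diamonds), filled where the chain passed on both scales. In the right panel most diamonds lie near or below 0, and in the left panel 14 chains are filled above 0 and Col6a6 below it.

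In sham RV compared with sham LV, Col20a1 was the chain that was higher, by 0.87 ± 0.21 (adjusted p = 0.0304), 1 of 23 where 2.51% of genes were. No chain was lower (1.33% of genes). An unadjusted limma p under 0.05 in either direction was found for 5 of 23 chains and for 2564 of all 12100 genes. Col20a1 averaged 1.8 ± 0.53 FPKM in sham RV and 0.534 ± 0.335 in sham LV (SD, n = 4), and an estimated 2.58 to 13.4 fragments per library stood behind it in sham RV. It did not pass without sham RV 4 or sham LV 2 or 3. Col20a1 reached the level for testing only through the sham RV, the group where it was high, and without it and Col12a1 the count was 0 of 21. For the chains whose banding effects differed, the difference of sham RV from sham LV was −0.47 ± 0.18 for Col4a1, −0.41 ± 0.14 for Col4a2, −0.42 ± 0.24 for Col4a5 and −0.74 ± 0.32 for Col8a1 (adjusted p = 0.142, 0.106, 0.314 and 0.202). For Col4a1 and Col4a2 every sham RV library was below every sham LV library, and for Col16a1 and Col20a1 every one was above, 2 of 23 chains each where 5.04% and 6.40% of genes were below or above. The median difference of sham RV from sham LV was −0.12 as deposited and −0.16 rescaled over other genes of 4000 to 8000 nt. Over genes under 4000 nt it was 0.06 and 0.03. For the chains of types I and III the difference of sham RV from sham LV was -0.02 for Col1a1 (95% interval -0.36 to 0.33), -0.04 for Col1a2 (-0.39 to 0.32) and -0.24 for Col3a1 (-0.70 to 0.22).

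In banded mice, 3 of 23 chains were higher in RV than in LV, Col1a1, Col12a1 and Col27a1, where 0.174% of genes were. No chain was lower (1.44% of genes). An unadjusted limma p under 0.05 in either direction was found for 15 of 23 chains and for 1858 of all 12100 genes. Col1a1 averaged 101 ± 8.06 FPKM in banded RV and 59.6 ± 13.9 in banded LV, a difference of 0.77 ± 0.16 (adjusted p = 0.0177). Col27a1 averaged 3.56 ± 0.291 FPKM in banded RV and 1.5 ± 0.0877 in banded LV, a difference of 0.87 ± 0.20 (adjusted p = 0.0289). Col12a1 averaged 1.76 ± 0.869 FPKM in banded RV and 0.307 ± 0.291 in banded LV, a difference of 1.06 ± 0.23 (adjusted p = 0.0222). For all 3, every banded RV library was above every banded LV library (SD, n = 4 in each). That held for 10 of 23 chains, where 2.43% of genes did so, and the reverse for Col6a6 alone (8.16% of genes). Rescaled only, 6 chains passed upward (0.620% of genes). Col12a1 reached the level for testing only through the banded RV, and without it and Col20a1 the count was 2 of 21. None passed among libraries with an Rn45s value, and leaving out banded RV PS_9552, or banded LV PS_9552 or PS_9564, left no call. Col1a1 also lost its call without banded RV PS_9553 or PS_9564 or banded LV PS_9553, Col12a1 without banded RV PS_9561, and Col27a1 when any 1 of the 8 banded libraries was left out.

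Summed by class, fibrillar, type IV and other chains each had a higher level in every banded RV library than in any sham RV library. The 11 fibrillar chains summed to 337, 345, 319 and 305 FPKM in banded RV, against 178, 153, 170.2 and 136 in sham RV. The 6 type IV chains summed to 244, 273, 233 and 251 FPKM in banded RV, against 119, 93.2, 104 and 122 in sham RV. The other 27 chains summed to 132, 155, 153 and 154 FPKM in banded RV, against 78.9, 75.3, 83.2 and 77.6 in sham RV. The log2 ratios of the mean sums were 1.04, 1.19 and 0.91. In the left ventricle the sums averaged 209 ± 54.6 FPKM in banded LV against 166 ± 13.3 in sham LV for fibrillar chains, 178 ± 40.6 against 149 ± 8.24 for type IV and 134 ± 28.3 against 89.7 ± 10.8 for the rest (SD, n = 4), log2 ratios of 0.33, 0.26 and 0.58, of which the fibrillar and type IV ones turned negative when rescaled (−0.08 and −0.16). Of the summed collagen FPKM, fibrillar chains made up 45% in banded RV and 45.8% in sham RV, type IV 34.5% and 31.5%, and the rest 20.5% and 22.7%. In LV the shares were 39.9% in banded and 40.9% in sham for fibrillar, 34.4% and 36.9% for type IV and 25.8% and 22.1% for the rest. These sums are a description, with no test.

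**Figure D4:**
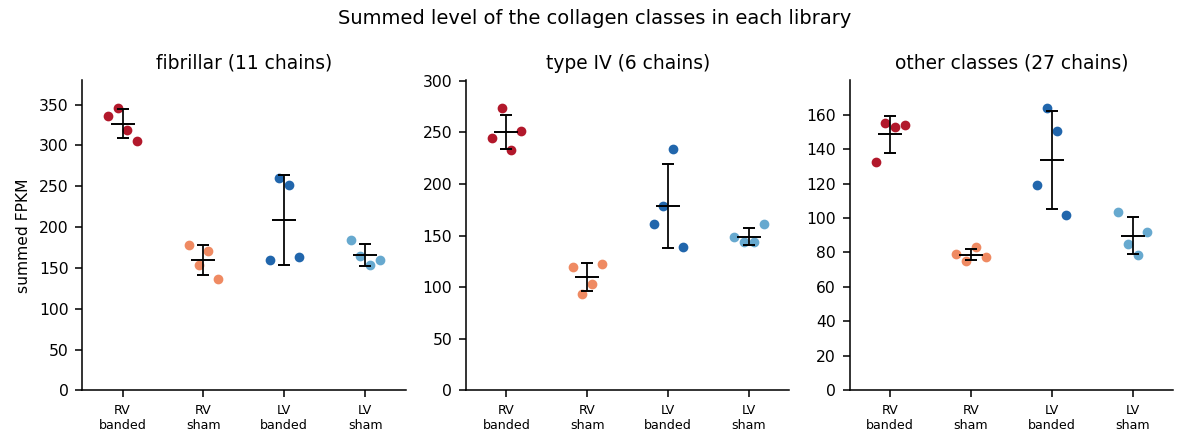
Summed FPKM (y axes, from 0) of the fibrillar, type IV and other collagen chains in each library, with a point for each library, a dash for the mean and a bar for the SD (n = 4). The banded RV lie above the sham RV in each panel. The banded LV overlap the sham LV in each panel, with libraries PS_9553 and PS_9561 the highest LV points for fibrillar chains.

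Ratios between the chains of types I and III do not depend on library scale. Col3a1 to Col1a1 was 0.999 ± 0.127 in banded RV, 0.871 ± 0.121 in sham RV, 1.04 ± 0.219 in banded LV and 1.02 ± 0.14 in sham LV (SD, n = 4). Col1a2 to Col1a1 was 0.864 ± 0.0841 in banded RV, 0.851 ± 0.17 in sham RV, 1.03 ± 0.132 in banded LV and 0.852 ± 0.0657 in sham LV. The ranges overlapped between banded and sham in RV for both ratios, and in LV for Col3a1 to Col1a1, while every banded LV library had a higher Col1a2 to Col1a1 ratio than any sham LV library.

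The proteins that modify, cross-link, bind and cut collagen were followed with a list of 44 genes, of which 35 were tested. In banded RV, 12 of the 35 rose and none fell, beside the 10.0% and 4.93% of all genes: 2 of 14 for synthesis and folding, 5 of 11 for propeptide removal and cross-linking, 3 of 6 receptors and 2 of 4 for degradation. Loxl2 and Loxl3 of the lysyl oxidase family, which cross-links collagen, averaged 10.5 ± 1.7 and 3.99 ± 1.01 FPKM in banded RV, against 3.24 ± 0.844 and 1.25 ± 0.139 in sham RV (SD, n = 4), and rose by 1.44 and 1.13 (adjusted p = 0.00274 and 0.00944). The integrin chains Itgb1 and Itga11, which pair to form a collagen-binding receptor, averaged 74.2 ± 9.76 and 2.6 ± 0.412 FPKM in banded RV, against 31.4 ± 2.78 and 0.732 ± 0.296 in sham RV, and rose by 1.21 and 1.06 (adjusted p = 0.00188 and 0.00381). The matrix proteases Mmp2 and Mmp14 averaged 51.3 ± 13.9 and 22 ± 5.22 FPKM in banded RV, against 21.5 ± 3.55 and 9.2 ± 2.03 in sham RV, and rose by 1.19 and 1.17 (adjusted p = 0.00221 and 0.00274). In banded LV, 3 of the 35 rose and none fell, beside 2.44% and 0.289% of all genes, Itgb1 by 1.02 (adjusted p = 0.0059), and P4hb and Ppib, enzymes of collagen folding, by 1.25 and 1.58 (0.00136 and 0.000706). Ppib had the more negative banding effect in RV than in LV (-1.41, adjusted p = 0.00808), 1 of 35 where 3.56% of all genes had one. Its own difference in RV was 0.17 and did not pass (adjusted p = 0.585). Ppib was also higher in sham RV than in sham LV, by 0.82 (adjusted p = 0.0374), 1 of 35 where 2.51% of all genes were.

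Markers of the cells that make collagen were checked beside these results. Over all genes tested, 10.0% rose and 4.93% fell in banded RV, and 2.44% rose and 0.289% fell in banded LV. As deposited alone, 12.5% of genes passed upward in RV and 14.3% in LV. Summed over 8 fibroblast markers, the level was 678 to 1149 FPKM in banded RV, 779 to 1114 in sham RV, 930.4 to 1505 in banded LV and 515 to 766 in sham LV, and 1 of 8, Pi16, rose, in both ventricles. Gsn made up most of that sum and averaged 559 FPKM in banded RV and 710.0 in sham RV, while the median difference over the 8 markers was 0.59 in RV as deposited and 0.39 rescaled. The median in LV was 0.78 as deposited and 0.38 rescaled. Pdgfra and Ddr2 had differences of 0.65 and 0.81 in RV and passed as deposited only (adjusted p = 0.0447 and 0.0419, and 0.0631 and 0.0528 rescaled). Tcf21 had a negative difference in RV, -0.26 (adjusted p = 0.578). Dcn and Gsn had differences of 1.16 and 0.80 in LV and passed as deposited only (adjusted p = 0.00789 and 0.00714, and 0.0909 and 0.263 rescaled). Summed over 6 endothelial markers the level was 216 to 296 FPKM in banded RV, 160.3 to 199 in sham RV, 199.6 to 317 in banded LV and 173 to 219 in sham LV, and none of the 6 rose on both scales in either ventricle. As deposited only, Pecam1 and Kdr passed upward in RV (adjusted p = 0.0316 and 0.0394, and 0.0644 and 0.0617 rescaled). In LV, Pecam1 and Tek did so (adjusted p = 0.00551 and 0.0254, and 0.0689 and 0.179 rescaled). Over 6 mural cell markers the sum was 214 to 294 FPKM in banded RV, 169 to 184 in sham RV, 161 to 292 in banded LV and 135 to 188 in sham LV, and 1 of 6, Cspg4, rose in RV. Rgs5 passed upward as deposited only in RV (adjusted p = 0.0242, and 0.0507 rescaled). In LV, Rgs5, Myh11 and Acta2 did so (adjusted p = 0.0398, 0.0347 and 0.0303, and 0.454, 0.206 and 0.221 rescaled). Over 5 macrophage markers the sum was 103 to 177 FPKM in banded RV, 87.2 to 90.4 in sham RV, 99.2 to 200.3 in banded LV and 52.8 to 82.2 in sham LV, and none of the 5 rose in RV while Lyz2 rose in LV. Csf1r passed upward as deposited only in LV (adjusted p = 0.0201, and 0.199 rescaled). The 5 cardiomyocyte markers summed to 11759 to 17255 FPKM in banded RV, 16084 to 18716 in sham RV, 21268 to 27007 in banded LV and 11874 to 17681 in sham LV, and Tnni3 fell in RV and rose in LV. Myh6, Actc1 and Tnnt2 passed upward as deposited only in LV (adjusted p = 0.0325, 0.0305 and 0.0371, and 0.416, 0.432 and 0.542 rescaled). The 4 Schwann cell markers summed to 2.66 to 3.67 FPKM in banded RV, 2.21 to 10.1 in sham RV, 2.87 to 3.89 in banded LV and 2.6 to 5.22 in sham LV, and none of the 3 Schwann cell markers tested passed in either ventricle. The pancreatic hormone genes Ins1, Ins2, Gcg and Iapp fell in banded RV and Ins2 also fell in banded LV, and the sum over the 6 pancreatic markers was 63 to 154 FPKM in banded RV, 633 to 2134 in sham RV, 24.1 to 58.4 in banded LV and 86.6 to 2085 in sham LV, while the acinar enzyme gene Pnlip was at 0 in all 16 libraries. Msln and Upk3b, 2 of 4 mesothelial markers, also fell in banded RV and Krt19 rose in banded LV, with sums over the 4 of 6.07 to 9.43 FPKM in banded RV, 8.04 to 22.5 in sham RV, 6.57 to 12 in banded LV and 2.48 to 8.69 in sham LV. The part of these cells in the collagen differences was not tested.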

How the data were processed

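RNA of 16 ventricular free wall samples was sequenced as polyA libraries, 4 in each of 4 groups. The authors deposited FPKM per gene and replicate; per the submitters' processing notes the tools were FastQC 0.11.5, STAR 2.5.3a, Cufflinks 2.2.1, Cuffdiff and R 3.3.1, with build mm9. The authors' group-level table was not used. Members and gene lists were chosen with earlier results of these data known.

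The 12100 of 23946 genes that reached 1 FPKM in 4 libraries were tested on log2(FPKM + 1) with limma 3.58.1 in R 4.3.3, as 4 group means with a trended prior and Benjamini-Hochberg adjustment over all 12100. A call needed an adjusted p below 0.05 in the same direction on the deposited and on the rescaled values. Scale factors came from 9934 genes, as each library's median ratio to their geometric means. The 5 contrasts were banded minus sham for RV and for LV, the RV effect minus the LV effect, and RV against LV within sham and within banded mice. The deposited values hold no counts: fragments were estimated from the spacing of low FPKM values of 4118 genes, taking fragments to be 200 nt long, so they are approximate, and 3 fragments were taken as the limit of detection, which covers counting error only.

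Every chain is accounted for: chains with a mean of 5 FPKM or more in some group were to be given in every library, other tested chains by means or values, and the rest by their highest value. Pathway genes named are the 6 with the smallest p among those that passed in RV, and every one that passed in LV. Tables and figures were made with Python 3.11.15, pandas 2.3.3 and matplotlib 3.10.9. The limma step was run on simulated data with changed genes in banded RV only and without differences of library scale. That run cannot show how the calls depend on scaling. Alternatives were other scalings, pseudocounts, filters and priors, a length and GC correction, a replicate block, libraries with an Rn45s value and each library left out.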

Additional observations from a re-analysis of the deposited data

Results flagged for a closer look

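In 3 of 92 groups of 4 libraries, the extreme library stood apart from the others by more than Dixon's critical share of the group's range, where chance gives about 1 in 20. Col4a2 was at 48.4 FPKM in sham RV library 4, against 43.6 to 44.3 in the other sham RV libraries. Col14a1 was at 8.75 FPKM in banded RV library PS_9561, against 5.92 to 6.17 in the other banded RV libraries. Col20a1 was at 2.59 FPKM in sham RV library 4, against 1.46 to 1.58 in the other sham RV libraries.

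For 4 chains the effect of banding differed between RV and LV by limma's test of the difference, with a more positive effect in RV. The difference of the effects on the log2 scale was 0.98 for Col4a1, 0.88 for Col4a2, 1.17 for Col4a5 and 1.71 for Col8a1.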

How the results depend on the processing

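The count of chains that rose in banded RV, 14, stayed within 1.5 times itself in all settings run, from 10 among libraries with an Rn45s value to 18 with TPM scaling or no filter, and 10 to 14 with 1 library left out. These 18 were out of 23 chains tested with TPM scaling but out of 44 with no filter. The lower count in RV, 1, was 3 rescaled only, 3 with quantile normalization, 0 with a filter of 5 FPKM, and 1 to 1 with a library left out. The filter of 5 FPKM left 16 chains to test. Col6a6, Col11a2, Col12a1, Col20a1 and Col27a1 stayed under 5 FPKM in every library, so this filter left them untested and the loss of their calls was fixed in advance. In LV the higher count, 0, was 4 as deposited only and 1 with the length and GC correction (0 to 1 with a library left out). The lower count, 2, was 1 with TPM scaling, no filter, a filter of 5 FPKM, only the libraries of the comparison, a robust prior or the length and GC correction, and 0 among libraries with an Rn45s value (0 to 2 with a library left out). More positive effects in RV than LV, 4, became 8 rescaled only, 10 with TPM scaling, 8 with quantile normalization, 0 with the replicate block and 0 among libraries with an Rn45s value (1 to 5 with a library left out), and more negative ones, 0, became 1 with the length and GC correction (0 to 1). Higher in sham RV than sham LV, 1, was 0 with TPM scaling, a filter of 5 FPKM, only the libraries of the comparison, the replicate block or libraries with an Rn45s value (0 to 1), and lower, 0, was 9 with TPM scaling, 3 with quantile normalization and 1 with the length and GC correction (0 to 0). Higher in banded RV than banded LV, 3, was 6 rescaled only, 9 with quantile normalization and 1 with a filter of 5 FPKM. With the length and GC correction the count was also 1, a different chain. There Col1a1, Col12a1 and Col27a1 did not pass (limma's adjusted p = 0.0834, 0.0507 and 0.0842). The count was 0 with TPM scaling or the replicate block (0 to 3 with a library left out), and lower stayed 0 to 0.

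Class sums in RV, as log2 ratios, were 0.84 (fibrillar), 1.0 (type IV) and 0.70 (other) rescaled, 1.61, 1.74 and 1.45 with TPM scaling, and 0.71 for other chains with quantile normalization; with a library left out they ranged 0.97 to 1.09, 1.12 to 1.25 and 0.89 to 0.97. In LV they were −0.0789, −0.16 and 0.16 rescaled, −0.19, −0.30 and 0.0955 with quantile normalization, and −0.0173, −0.10 and 0.18 among libraries with an Rn45s value; with a library left out they ranged 0.21 to 0.44, 0.0998 to 0.36 and 0.47 to 0.69. In RV, Col4a4 turned to −0.0812 with quantile normalization and Col5a3 to 0.16 with TPM scaling; neither had passed. The cause of these changes was not tested.

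Libraries of RV and LV share numbers, but the labels do not say that a number marks a mouse, and same-number libraries did not deviate together (correlations −0.0961 to 0.161, 1 of 8 above 0.1, and 1 of 8 highest with its own number). With the replicate block the adjusted p of the difference of effects was 0.059 for Col4a1, 0.0687 for Col4a2, 0.11 for Col4a5 and 0.075 for Col8a1. Where banded LV keeps 1 library, its spread is assumed to be that of the other groups. The shallow sham RV libraries limit chains under about 1 FPKM.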

Other observations

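The balance of the type V chains was looked at after their values were seen. The ratio of Col5a2 to Col5a1, which no library scaling alters, was 0.774 ± 0.104 in banded RV and 0.337 ± 0.0861 in sham RV (SD, n = 4), with ranges of 0.686 to 0.925 and 0.241 to 0.438 that did not overlap. In the left ventricle it was 0.652 ± 0.193 in banded LV and 0.493 ± 0.0925 in sham LV, and the ranges overlapped. The summed fibrillar to summed type IV level was 1.31 ± 0.0787 in banded RV, 1.47 ± 0.25 in sham RV, 1.17 ± 0.203 in banded LV and 1.11 ± 0.107 in sham LV. These ratios are a description, with no test.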
